A study of Mus musculus with 6 samples.

Results

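The Wnt and beta-catenin pathway genes described here are 44 genes, listed by symbol and found in the deposited table of raw counts, which holds 52636 gene identifiers. They comprise 4 nuclear factors, 6 genes of the receptor complex used at the blood-brain barrier, 8 other receptors, 4 cytoplasmic transducers, 6 targets and feedback inhibitors, 7 secreted inhibitors, and 9 ligands and agonists. RNA came from endothelial cells of mouse brain that were grown in culture, and it was sequenced as polyadenylated libraries. The knockout group (3 libraries, called knockout 1 to 3) is given in the labels as a double knockout of Erg and Fli1, a pair of ETS transcription factors of endothelial cells. The control group (3 libraries, called control 1 to 3) is given as wild type. Both groups were treated with 4-OHT, the form of tamoxifen that switches on an inducible Cre recombinase, so an effect of the drug itself is shared by both groups. Before RNA isolation, living cells were sorted as CD45 negative, CD31 positive and VE-cadherin positive. The labels do not name the Cre line, the age or number of the mice, or whether libraries of a group came from separate cultures. By Xist and Y-linked genes, knockouts 2 and 3 and control 2 were female and knockout 1 and controls 1 and 3 were male, so each group holds cells of at least 2 animals. Between libraries of the same sex, the spread behind the p-values may be technical.

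In canonical Wnt signalling, a Wnt ligand binds a Frizzled receptor and an Lrp5 or Lrp6 co-receptor, which frees beta-catenin from a destruction complex built on Axin and lets it act with TCF/LEF factors in the nucleus. In brain endothelium this signal is known for inducing and maintaining the blood-brain barrier. There the ligands Wnt7a and Wnt7b act through Frizzled receptors with the co-activators Adgra2 and Reck, and Norrin acts in the retina through Fzd4 with Tspan12. The signal is held in check by secreted proteins that bind Wnts or Lrp co-receptors, and by feedback inhibitors that the pathway itself induces.

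The deleted genes and the labelled cell type were checked first. Erg was at 70.1, 88.2 and 109 CPM in knockout cells, against 656, 223 and 609 CPM in control cells, where CPM is the count relative to a library size scaled by TMM, in counts per 1000000 (log2 fold change -2.48 ± 0.44 SE, edgeR adjusted p = 0.0137). That call was lost when control 3 or a knockout library was left out, up to an adjusted p of 0.0691. Fli1 was at 57.0, 68.4 and 66.6 CPM in knockout cells, against 82.8, 64.0 and 92.0 CPM in control cells (-0.32 ± 0.15, adjusted p = 0.181, and -0.48 with 0.00346 without control 2). The table gives 1 value per gene, so the deleted exons themselves could not be examined. The sort genes Cdh5 and Pecam1 had reads in all 6 libraries, at 1103 to 1405 CPM for Cdh5 in knockout cells against 2301 to 4951 CPM in control cells. Of 12 endothelial markers, 11 were lower in knockout cells at an edgeR adjusted p under 0.05, beside 11.7% of all genes tested. Their median log2 fold change was -2.06. Without control 2 all 12 were lower, beside 24.8% of all genes. Library totals were 17274639 to 19410458 counts.

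Control 2, the only female control, stood apart from the other control libraries, also in the Wnt genes. Leaving it out therefore also leaves male controls alone, and within the controls its sex and its other differences cannot be told apart. By chi-square per degree of freedom between libraries, control 2 was at 210 from control 1 and 191 from control 3. Male knockout 1 was at 11.5 from female knockout 2 and 9.94 from female knockout 3, and those females were at 11.5 from each other. The part of sex in the distance of control 2 was not tested. Among the 35 Wnt genes that averaged 1 CPM or more, 14 (40.0%) lay more than 2-fold above the mean of controls 1 and 3 in control 2 and 5 lay more than 2-fold below it, against 11.4% and 5.3% of 12822 genes at that level. The 12 endothelial markers summed to 3912 to 4780 CPM in knockout cells, against 16038, 6956 and 16000 CPM in control cells. The 14 fibroblast markers summed to 2288 to 3767 CPM in knockout cells, against 556, 14701 and 1396 CPM in control cells. The 12 pericyte and smooth muscle markers summed to 782 to 1576 CPM in knockout cells, against 477, 4297 and 591 CPM in control cells. The 8 microglia markers, whose defining gene C1qa was at 0 in every library, summed to 3.29 to 6.26 CPM in knockout cells. They summed to 4.63, 164 and 14.5 CPM in control cells. The sort removed CD45 positive cells, 3 of these markers were tested and 0 were called. Whether the sum in control 2 came from microglia was not tested. Astrocyte markers summed to 59.0 to 78.5 CPM in knockout cells and 113 to 312 CPM in control cells. Most of that sum was Gja1 in every library, at 65.2, 46.0 and 60.1 CPM in knockout cells, against 103, 294 and 151 CPM in control cells. Neuron and oligodendrocyte markers summed to 56.2 to 81.9 CPM in knockout cells and 16.8 to 68.4 CPM in control cells. Choroid plexus and epithelial markers, with Ttr at 0 throughout, summed to 18.4 to 27.5 and 143 to 213 CPM in the same order. Of these 8 epithelial markers, 2 were tested, and 1 rose and 1 fell in knockout cells, beside 13.1% and 11.7% of all genes. The 2 most abundant members were Col1a1 and Col1a2 for fibroblasts, Acta2 and Pdgfrb for mural cells, Tmem119 and Cd68 for microglia, Gja1 and Aldh1l1 for astrocytes, and Clic6 and Krt18 for epithelium. Col1a1 was at 104 to 235 CPM in knockout cells, against 213, 5477 and 627 CPM in control cells. The part of these cells in the Wnt results below was not tested, and in bulk RNA fewer cells of a type and less RNA per cell cannot be told apart. Results are therefore given with all libraries and without control 2.

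Of the 44 Wnt genes, 37 passed the filter on low counts and 10 of these differed between the groups. Tcf7, Lrp6, Reck, Fzd8, Axin1, Znrf3, Sfrp1 and Sfrp2 rose in knockout cells, and Tcf7l2 and Wnt9a fell. The 8 genes that rose were 21.6% of the tested Wnt genes, beside 13.1% of all 13901 genes tested, and the 2 that fell were 5.41%, beside 11.7% (edgeR quasi-likelihood test, called at an adjusted p under 0.05). The median log2 fold change of the 37 genes was 0.03, and that of all tested genes was 0.0030. Without control 2, 17 of the 37 rose (45.9%, beside 25.5% of 14178 genes) and 7 fell (18.9%, beside 24.8%), with a median of 0.48 against -0.0037 over all genes. All 10 calls stood, in the same direction, without control 2, and 9 further genes then rose and 5 fell. With each library left out in turn, 3 of the 10 (Fzd8, Axin1 and Sfrp1) were called in all 6 fits. Lrp6, Reck, Znrf3 and Wnt9a were called in 1 of the 6, the fit without control 2. For 7 genes (Lrp5, Fzd1, Fzd6, Fzd7, Ror2, Nkd1 and Nkd2) the sign of the fold change was the opposite without control 2. Among the 37 genes, all knockout libraries lay above all control libraries for 11, beside 25.1% of all tested genes, and below them for 4, beside 21.3%.

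**Figure D1:**
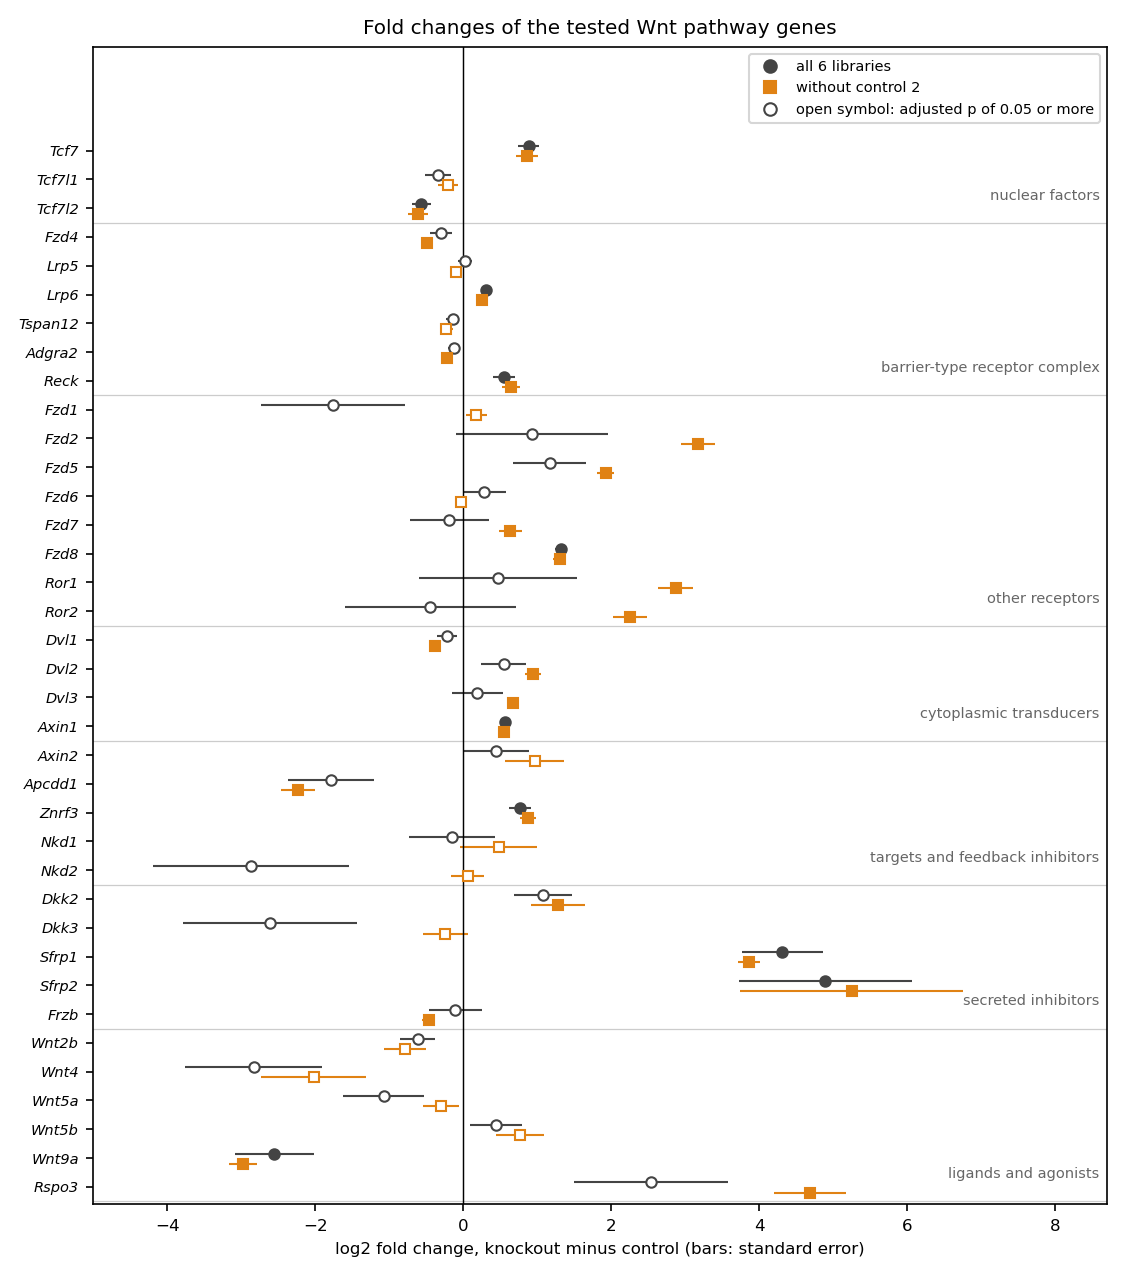
Log2 fold changes of the 37 tested Wnt pathway genes, knockout minus control, with standard errors, by role. Circles use all 6 libraries, squares leave out control 2, and filled symbols mark an adjusted p under 0.05. Sfrp1 and Sfrp2 lie farthest right among the filled circles and Wnt9a farthest left, and the Fzd2, Ror1 and Ror2 squares lie far from their circles.

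Promoter sequence was available for 31 of the 44 genes in a RefSeq table (GRCm38.p6, 250 bases before to 50 after a start site), with 39 promoters in all. The genes without an entry were Lrp5, Lrp6, Adgra2, Fzd2, Fzd6, Fzd8, Axin1, Apcdd1, Znrf3, Dkk3, Sfrp1, Wnt5a and Rspo3. The 39 promoters were searched on both strands. The letters sought were AGGAAG or CGGAAG, of an ETS factor site, and CTTTGA, of a TCF/LEF site. The promoters of Dkk1, Frzb and Fzd1 and a promoter of Lef1 hold both, and none of those printed here does. AGGAAG or CGGAAG was in 15 of the 39 promoters (38.5%), beside 46.5% of all 32817 promoters in the table, and CTTTGA was in 6 (15.4%), beside 16.001%. The 5 changed genes with an entry have 7 promoters, of which 2 hold the ETS letters and 0 the TCF/LEF letters. Those 2 are shown, with the promoter of Wnt9a, the changed ligand, which holds neither. Capitals mark the ETS letters, and each sequence runs 5′ to 3′ on the strand of its gene. The Tcf7 promoter shown is chr11:52282546-52282845 on the minus strand, with the match on the opposite strand beginning at position -25 from the start site. It belongs to an internal start site of that gene. The other Tcf7 promoter, chr11:52282965-52283264 at the 5′ end of the gene, holds neither the ETS nor the TCF/LEF letters. The Tcf7l2 promoter is chr19:55895071-55895370 on the plus strand, with the match on the opposite strand beginning at position -169, and belongs to an internal start site of that gene. The Wnt9a promoter is chr11:59306680-59306979 on the plus strand.
Tcf7: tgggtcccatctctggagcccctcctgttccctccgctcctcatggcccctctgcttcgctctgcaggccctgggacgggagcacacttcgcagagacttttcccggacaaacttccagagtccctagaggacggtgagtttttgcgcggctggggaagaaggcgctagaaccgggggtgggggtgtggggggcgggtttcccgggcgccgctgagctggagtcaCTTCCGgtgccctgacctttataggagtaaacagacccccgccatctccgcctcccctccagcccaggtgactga
Tcf7l2: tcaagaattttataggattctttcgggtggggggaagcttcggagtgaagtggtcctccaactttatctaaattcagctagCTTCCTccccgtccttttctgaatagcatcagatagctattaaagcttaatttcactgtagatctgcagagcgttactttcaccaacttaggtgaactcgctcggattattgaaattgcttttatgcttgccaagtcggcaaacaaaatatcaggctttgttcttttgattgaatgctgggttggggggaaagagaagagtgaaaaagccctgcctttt
Wnt9a: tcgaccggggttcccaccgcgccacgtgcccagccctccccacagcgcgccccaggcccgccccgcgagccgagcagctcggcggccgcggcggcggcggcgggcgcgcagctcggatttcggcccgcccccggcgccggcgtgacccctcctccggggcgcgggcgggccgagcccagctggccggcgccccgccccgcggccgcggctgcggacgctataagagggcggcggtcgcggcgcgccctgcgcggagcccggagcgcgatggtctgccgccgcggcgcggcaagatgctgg
A match is a description of the letters in the window and does not show that a factor binds there.

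Among the nuclear factors, through which beta-catenin acts on its targets, Tcf7 rose and Tcf7l2 fell in knockout cells, with all libraries and without control 2 (0.86 with an adjusted p of 0.00308 and -0.61 with 0.00945). Tcf7 (ENSMUSG00000000782, chr11:52252371-52283014) was at 6.52, 7.13 and 6.62 CPM in knockout cells, against 3.26, 3.69 and 4.00 CPM in control cells. Every knockout library lay above every control library, with means of 6.76 ± 0.33 CPM in knockout cells and 3.65 ± 0.369 CPM in control cells (SD, n = 3 each). Its log2 fold change was 0.89 ± 0.14 (adjusted p = 0.0102), and the call was lost without knockout 2 (adjusted p = 0.0533). Tcf7l2 (ENSMUSG00000024985, chr19:55741820-55933654), a factor that can activate or repress, was at 17.96, 13.2 and 15.2 CPM in knockout cells, against 22.5, 22.4 and 23.7 CPM in control cells. Here too no library of 1 group reached into the other, with means of 15.4 ± 2.42 and 22.9 ± 0.723 CPM in knockout and control cells. Its log2 fold change was -0.57 ± 0.13 (adjusted p = 0.0275), and leaving out control 1, control 3, knockout 2 or knockout 3 lost the call, up to an adjusted p of 0.0998. Tcf7l1, which acts mainly as a repressor, was at 23.0, 23.5 and 25.6 CPM in knockout cells, against 30.9, 37.1 and 23.3 CPM in control cells, and the groups overlapped (-0.34 ± 0.18, adjusted p = 0.207). Lef1, the TCF/LEF factor used as a readout of Wnt activity in many tissues, had 15 counts over the knockout libraries, against 29 over the control libraries, and did not pass the filter on low counts. It was at 0.359, 0.390 and 0.0556 CPM in knockout cells, against 0.474, 0.598 and 0.493 CPM in control cells, without overlap. Its exons share 13.7% of their bases with a gene on the opposite strand, where the counting may not separate them. Set per kb of exon, Tcf7 made up 23.4% to 26.5% of the transcripts of the 4 factors in knockout cells, against 10.5% to 14.9% in control cells.

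**Figure D2:**
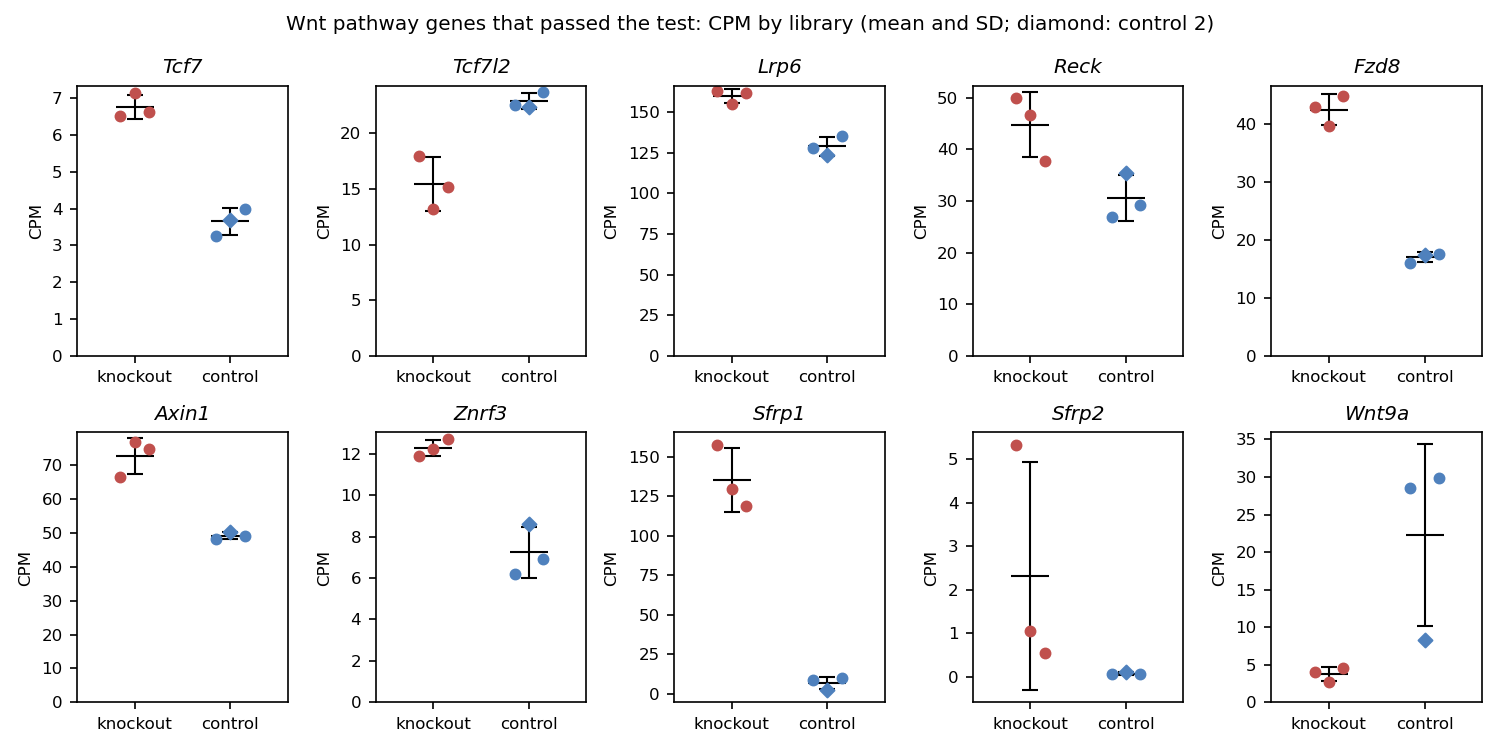
CPM of the 10 Wnt pathway genes that differed between the groups, each point a library, with the mean and SD of 3 knockout and 3 control libraries, and a diamond for control 2. In all 10 panels the knockout and control points do not overlap, and control 2 lies close to the other controls for Fzd8, Axin1, Tcf7 and Tcf7l2 and apart from them for Wnt9a and Sfrp1.

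In the barrier-type receptor complex, Lrp6 and Reck rose in knockout cells and the other 4 genes did not pass the test. Per kb of exon, Adgra2 was the most abundant of the 6, at 94.4 CPM per kb in knockout cells and 103 CPM per kb in control cells. It was followed by Fzd4 at 25.5 and 31.3, Lrp5 at 21.1 and 20.7, Lrp6 at 11.7 and 9.42, Reck at 9.37 and 6.39, and Tspan12 at 8.39 and 9.25 CPM per kb, in knockout and control cells in that order. Lrp5 was above Lrp6 in both groups on this scale. All 6 genes had reads in every library.

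Lrp6 (ENSMUSG00000030201, chr6:134446476-134566965), a co-receptor that binds Wnt beside Frizzled, was at 163, 155 and 162 CPM in knockout cells, against 128, 124 and 135 CPM in control cells. The groups did not overlap, and the means were 159.8 ± 4.14 CPM in knockout cells and 129 ± 5.67 CPM in control cells (log2 fold change 0.31 ± 0.06, adjusted p = 0.0153). Reck (ENSMUSG00000028476, chr4:43875530-43944806), a membrane-anchored protein that binds Wnt7 ligands, was at 49.9, 46.6 and 37.8 CPM in knockout cells, against 26.8, 35.4 and 29.3 CPM in control cells. Its lowest knockout value lay just above its highest control value, that of control 2 (0.55 ± 0.15, adjusted p = 0.0468). Both calls were kept without control 2, at 0.25 (adjusted p = 0.00651) for Lrp6 and 0.64 (0.00458) for Reck. Both were lost without any other library, up to adjusted p of 0.0802 for Lrp6 and 0.144 for Reck.

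Fzd4, the Frizzled that Norrin binds, was at 166, 181 and 166 CPM in knockout cells, against 234, 164 and 234 CPM in control cells (-0.30 ± 0.15, adjusted p = 0.202). Control 2 lay with the knockout libraries, and without it Fzd4 fell in knockout cells, by 0.49 on the log2 scale (adjusted p = 0.000357). Adgra2, the G protein-coupled receptor that acts with Reck, was at 553, 539 and 543 CPM in knockout cells, against 609.5, 549 and 626 CPM in control cells (-0.13 ± 0.08, adjusted p = 0.294). It too was called lower without control 2 (-0.21, adjusted p = 0.00985). Tspan12, the tetraspanin partner of Fzd4, was at 28.5, 29.1 and 25.7 CPM in knockout cells, against 32.4, 28.3 and 31.3 CPM in control cells (-0.14 ± 0.09, adjusted p = 0.292). Without control 2 its fold change was -0.23 (adjusted p = 0.0575). Lrp5, the second co-receptor, was at 199, 218 and 201 CPM in knockout cells, against 209, 177 and 219 CPM in control cells (0.03 ± 0.10, adjusted p = 0.865). Its value without control 2 was -0.09 (adjusted p = 0.217), and the groups overlapped.

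Among the other receptors, Fzd8 rose in knockout cells in every fit that left out 1 library, and 5 of the other 7 genes were called only without control 2. Fzd8 (ENSMUSG00000036904, chr18:9212163-9218136), a Wnt receptor of the Frizzled family, was at 43.0, 39.7 and 44.8 CPM in knockout cells, against 16.1, 17.4 and 17.6 CPM in control cells. Control 2 lay between the other 2 controls, and the group means were 42.5 ± 2.61 CPM in knockout cells and 17.0 ± 0.813 CPM in control cells. The log2 fold change was 1.32 ± 0.08 (adjusted p = 0.000991), with an adjusted p of at most 0.00943 when any 1 library was left out. Without control 2, 6 of the 8 receptors were called higher in knockout cells and 0 lower, beside 25.5% and 24.8% of all genes. With all libraries the counts were 1 and 0, beside 13.1% and 11.7%.

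Fzd5, Fzd2, Ror1, Ror2 and Fzd7 were the 5 receptors called higher only when control 2 was left out. Fzd5 was at 33.0, 38.8 and 32.3 CPM in knockout cells, against 9.05, 28.5 and 8.76 CPM in control cells (1.17 ± 0.49, adjusted p = 0.141). Its knockout and control values did not overlap, and the value without control 2 was 1.93 (adjusted p = 2.34e-05). The exons of Fzd5 share 17.8% of their bases with a gene on the opposite strand. Fzd2 was at 17.0, 22.1 and 16.1 CPM in knockout cells, against 1.58, 25.0 and 2.41 CPM in control cells (0.93 ± 1.03, adjusted p = 0.549). Control 2 was the highest of the 6 libraries, and without it the fold change was 3.17 (adjusted p = 5.29e-05). Ror1, a receptor tyrosine kinase-like protein that binds Wnt5a, was at 7.85, 6.63 and 6.12 CPM in knockout cells, against 0.737, 13.0 and 1.09 CPM in control cells (0.47 ± 1.06, adjusted p = 0.776). Its paralogue Ror2 was at 7.75, 7.91 and 5.62 CPM in knockout cells, against 1.58, 26.1 and 1.31 CPM in control cells (-0.45 ± 1.16, adjusted p = 0.805). Both were again highest in control 2, and without it stood at 2.87 (adjusted p = 9.60e-05) for Ror1 and 2.25 (0.000245) for Ror2. Fzd7 was at 55.7, 56.6 and 41.3 CPM in knockout cells, against 28.8, 110.5 and 35.6 CPM in control cells (-0.19 ± 0.53, adjusted p = 0.824). It too had its highest value in control 2, and without that library it was 0.63 higher in knockout cells on the log2 scale (adjusted p = 0.0134). All 5 receptors therefore lay in knockout cells above controls 1 and 3. The fibroblast and mural marker sums, given above, were also higher in knockout cells than in controls 1 and 3 and highest in control 2. Single markers went both ways. Without control 2, 7 of 12 tested fibroblast markers were called higher and 1 lower, beside 25.5% and 24.8% of all genes. Of 12 mural markers, 4 were then called higher and 1 lower. The part of such cells in the receptor values was not tested.

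Fzd1 and Fzd6 were not called with or without control 2. Fzd1 was at 15.3, 12.5 and 11.3 CPM in knockout cells, against 10.9, 109.8 and 11.7 CPM in control cells (-1.76 ± 0.97, adjusted p = 0.236, and 0.18 with 0.350 without control 2). Its value in control 2 alone set the sign of the difference. Fzd6, which acts mainly in planar polarity, was at 228, 218 and 199.9 CPM in knockout cells, against 221, 102 and 208 CPM in control cells (0.28 ± 0.29, adjusted p = 0.520, and -0.03 with 0.745 without control 2). Per kb of exon, Fzd6 and Fzd4 were the most abundant Frizzleds in every knockout library and in controls 1 and 3. Fzd6 made up 42.4% to 44.8% of the Frizzled transcripts in knockout cells, against 48.4%, 19.1% and 45.8% in control cells. Fzd4 made up 23.4% to 25.9% in knockout cells, against 36.7%, 21.95% and 37.0% in control cells. The share of Fzd8 was 6.80%, 6.23% and 7.87% in knockout cells, against 2.84%, 2.63% and 3.12% in control cells, and did not overlap. In control 2 Fzd1 alone held 23.6%.

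**Figure D3:**
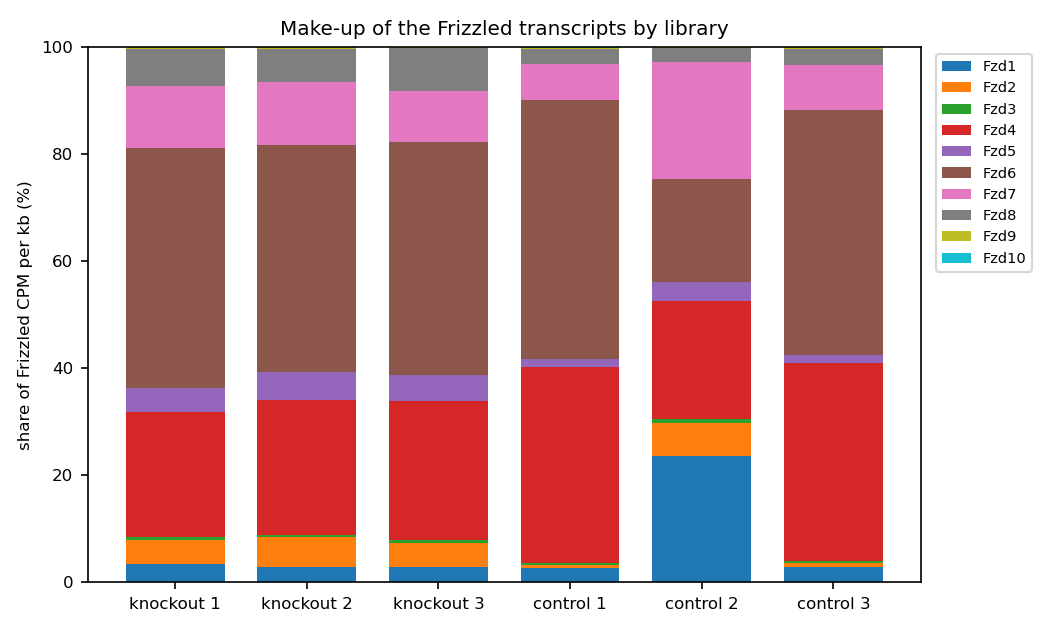
Share of each Frizzled gene in the summed Frizzled CPM per kb of exon, by library, with knockout libraries left of control libraries. Fzd6 and Fzd4 fill most of each bar except that of control 2, where Fzd1 holds 23.6%, and the Fzd8 share is 6.23% to 7.87% in knockout and 2.63% to 3.12% in control libraries.

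Among the cytoplasmic transducers, Axin1 rose in knockout cells and the 3 Dishevelled genes did not pass the test with all libraries. Axin1 (ENSMUSG00000024182, chr17:26138688-26195811), the scaffold of the beta-catenin destruction complex, was at 66.5, 76.7 and 74.7 CPM in knockout cells, against 48.3, 50.2 and 48.9 CPM in control cells. The control libraries lay close together, control 2 included, and all knockout libraries lay above them (72.6 ± 5.41 CPM in knockout cells, 49.1 ± 0.996 CPM in control cells). The log2 fold change was 0.56 ± 0.07 (adjusted p = 0.00581), and the adjusted p was at most 0.0326 without any 1 library. The Dishevelled proteins pass the signal from Frizzled to Axin. Dvl1 was at 102, 95.1 and 107 CPM in knockout cells, against 125, 94.7 and 134 CPM in control cells (-0.22 ± 0.14, adjusted p = 0.299). Dvl2 was at 24.6, 22.3 and 23.8 CPM in knockout cells, against 12.6, 24.4 and 11.3 CPM in control cells (0.55 ± 0.31, adjusted p = 0.240). Dvl3 was at 37.4, 35.3 and 36.2 CPM in knockout cells, against 21.7, 50.7 and 22.9 CPM in control cells (0.19 ± 0.34, adjusted p = 0.719). In all 3 genes control 2 lay apart from the other controls, towards or past the knockout values. Without control 2, Dvl1 fell in knockout cells (-0.39, adjusted p = 0.00284), while Dvl2 (0.94, 0.000344) and Dvl3 (0.67, 0.000388) rose. The exons of Dvl2 share 18.3% of their bases with a gene on the opposite strand.

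Among the targets and feedback inhibitors, Znrf3 rose in knockout cells and 4 further genes could be tested without passing. Znrf3 (ENSMUSG00000041961, chr11:5276324-5444847), a ubiquitin ligase that removes Frizzled receptors from the cell surface, was at 11.9, 12.2 and 12.7 CPM in knockout cells, against 6.21, 8.59 and 6.90 CPM in control cells. The groups did not overlap (12.3 ± 0.392 CPM in knockout cells, 7.23 ± 1.22 CPM in control cells). The log2 fold change was 0.76 ± 0.15 (adjusted p = 0.0180), and the call was kept without control 2 (0.87, 0.000613) and lost without any other library, up to an adjusted p of 0.0731. Apcdd1, a membrane-bound Wnt inhibitor that brain endothelium induces in response to the signal, was at 22.4, 13.1 and 25.4 CPM in knockout cells, against 92.0, 23.0 and 95.0 CPM in control cells. Controls 1 and 3 lay far above the knockout libraries and control 2 lay among them, so that the test missed the threshold with all libraries (-1.79 ± 0.58, adjusted p = 0.0737). Without control 2 Apcdd1 fell in knockout cells, by 2.24 on the log2 scale (adjusted p = 0.000262).

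Axin2, the most widely used target of the canonical pathway, was low, at 0.975, 0.724 and 0.723 CPM in knockout cells, against 0.474, 0.978 and 0.328 CPM in control cells. The groups overlapped through control 2 (0.44 ± 0.45, adjusted p = 0.508, and 0.96 with 0.0818 without control 2). Nkd1, which binds Dishevelled, was as low, at 0.389 to 0.836 CPM in knockout cells, against 0.274 to 1.20 CPM in control cells (-0.15 ± 0.59, adjusted p = 0.873, and 0.48 with 0.478 without control 2). Its relative Nkd2 was at 2.46, 2.45 and 2.23 CPM in knockout cells, against 1.95, 47.8 and 2.52 CPM in control cells (-2.87 ± 1.32, adjusted p = 0.169). The Nkd2 value of control 2 set that fold change, which was 0.06 without it (adjusted p = 0.845). Rnf43, the paralogue of Znrf3, had 6 counts over the knockout libraries, against 1 over the control libraries, and was not tested.

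Among the secreted inhibitors, Sfrp1 and Sfrp2 rose in knockout cells, with the largest fold changes of the 10 changed genes. Both are secreted Frizzled-related proteins, which carry a Frizzled-type domain and bind Wnts outside the cell. Sfrp1 (ENSMUSG00000031548, chr8:23411502-23449632) was at 158, 130.01 and 119 CPM in knockout cells, against 8.42, 2.23 and 9.80 CPM in control cells. Control 2 was the lowest of all 6 libraries, and the means were 136 ± 20.1 CPM in knockout cells and 6.82 ± 4.03 CPM in control cells. The log2 fold change was 4.31 ± 0.55 (adjusted p = 0.00552), 3.86 (5.80e-06) without control 2, and the adjusted p was at most 0.0308 without any 1 library. Sfrp2 (ENSMUSG00000027996, chr3:83766321-83774316) was at 5.34, 1.06 and 0.556 CPM in knockout cells, against 0.0526, 0.109 and 0.0547 CPM in control cells. Knockout 1 held 104 of its knockout counts, and the groups did not overlap. Over the libraries Sfrp2 had 133 counts in knockout cells and 4 counts in control cells, a ratio of 35.6 (95% interval 13.6 to 132, which covers counting error only). Its call (log2 fold change 4.89 ± 1.17, adjusted p = 0.0320) was kept without control 2 (5.25, 0.0248) and lost without control 1, control 3 or knockout 2, up to an adjusted p of 0.1097. Without knockout 1 its log2 fold change was 3.37 (adjusted p = 0.0342). The exons of Sfrp2 share 16.1% of their bases with a gene on the opposite strand.

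Frzb, also a Frizzled-related protein, was at 164, 185 and 166 CPM in knockout cells, against 253, 90.9 and 211 CPM in control cells (-0.11 ± 0.36, adjusted p = 0.854). Control 2 was the lowest library, and without it Frzb fell in knockout cells, by 0.47 on the log2 scale (adjusted p = 0.00502). By group mean per kb of exon, Frzb was the most abundant of the secreted inhibitors in both groups. It was at 53.0 CPM per kb in knockout cells and 57.1 CPM per kb in control cells. In control 2 Dkk3 was above Frzb, at 58.1 against 28.1 CPM per kb. Sfrp1 was at 31.0 CPM per kb in knockout cells and 1.56 CPM per kb in control cells. Sfrp1 made up 30.4% to 34.5% of the transcripts of the secreted inhibitors in knockout cells, against 0.554% to 2.88% in control cells. Frzb made up 48.5% to 58.3% in knockout cells, against 92.2%, 30.5% and 83.6% in control cells.

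Dkk2, which binds Lrp co-receptors, was at 41.5, 25.9 and 25.2 CPM in knockout cells, against 7.63, 19.1 and 17.2 CPM in control cells. The groups did not overlap, yet the edgeR adjusted p was 0.0996 with all libraries (1.07 ± 0.39), 0.0249 without control 2 (1.28) and 0.0334 with DESeq2. Dkk3, a divergent member of that family, was at 13.7, 11.8 and 10.9 CPM in knockout cells, against 8.68, 195 and 19.43 CPM in control cells (-2.62 ± 1.18, adjusted p = 0.160, and -0.24 with 0.542 without control 2). The size of that difference rested on control 2. Dkk1 had 2 counts over the knockout libraries, against 0 over the control libraries, where a count of 0 allows up to 0.0522 CPM over the group. Wif1, another secreted protein that binds Wnts, had 2 counts in knockout cells and 6 in control cells, and neither it nor Dkk1 was tested.

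Among the ligands and agonists, Wnt9a fell in knockout cells and the other 5 tested genes did not pass with all libraries. Wnt9a (ENSMUSG00000000126, chr11:59306928-59333552), a canonical ligand, was at 4.11, 2.67 and 4.56 CPM in knockout cells, against 28.6, 8.26 and 29.8 CPM in control cells. Every knockout library lay below every control library, and control 2 lay between the knockout libraries and the other controls. The means were 3.78 ± 0.985 CPM in knockout cells and 22.2 ± 12.1 CPM in control cells (log2 fold change -2.55 ± 0.54, adjusted p = 0.0223). The call was kept without control 2 (-2.98, 3.35e-05) and lost without any other library, up to an adjusted p of 0.0943. Wnt5a, which signals mainly without beta-catenin and through the Ror receptors, was at 29.2, 20.6 and 16.8 CPM in knockout cells, against 22.5, 86.7 and 31.1 CPM in control cells (-1.08 ± 0.55, adjusted p = 0.204, and -0.30 with 0.333 without control 2). The groups overlapped, and control 2 was the highest library. Of the transcripts of the Wnt family per kb of exon, Wnt9a made up 14.1% to 28.8% in knockout cells, against 62.2%, 12.5% and 56.3% in control cells. Wnt5a made up 45.1% to 54.4% in knockout cells, against 20.8%, 56.0% and 25.0% in control cells.

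The remaining ligands were low. Wnt4 was at 0.975, 0.167 and 0.111 CPM in knockout cells, against 1.53, 5.76 and 1.92 CPM in control cells. The groups did not overlap, and the adjusted p was 0.0771 (-2.83 ± 0.93) with all libraries, 0.0513 (-2.02) without control 2 and 0.0517 (-4.39) without knockout 1. Of the 50-base stretches of Wnt4 transcripts, 3.85% also occur in transcripts of other genes. Wnt2b was at 0.723 to 0.836 CPM in knockout cells, against 0.978 to 1.37 CPM in control cells, without overlap (-0.62 ± 0.23, adjusted p = 0.108, and -0.79 with 0.0524 without control 2). Wnt5b was at 1.39 to 1.95 CPM in knockout cells, against 0.737 to 1.68 CPM in control cells (0.44 ± 0.35, adjusted p = 0.405). Wnt6 had 9 counts over the knockout libraries, against 19 over the control libraries, and was not tested. Wnt9b had 0 counts in knockout cells, which allows up to 0.0559 CPM over the group, and 1 count in control cells. Of these 5 ligands, Wnt4, Wnt2b and Wnt5b did not pass the edgeR test, and Wnt6 and Wnt9b were not tested.

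Rspo3, an R-spondin that strengthens Wnt signals by keeping Frizzled receptors at the cell surface, was at 10.3, 22.6 and 12.3 CPM in knockout cells, against 0.474, 6.63 and 0.657 CPM in control cells. Every knockout library lay above every control library, with control 2 the highest of the controls (2.54 ± 1.04, adjusted p = 0.130). Without control 2 the log2 fold change was 4.69 (adjusted p = 0.000270). The exons of Rspo3 share 13.1% of their bases with a gene on the opposite strand. Its relative Rspo1 had 1 count over the knockout libraries, against 10 over the control libraries, all 10 of them in control 2.

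**Figure D4:**
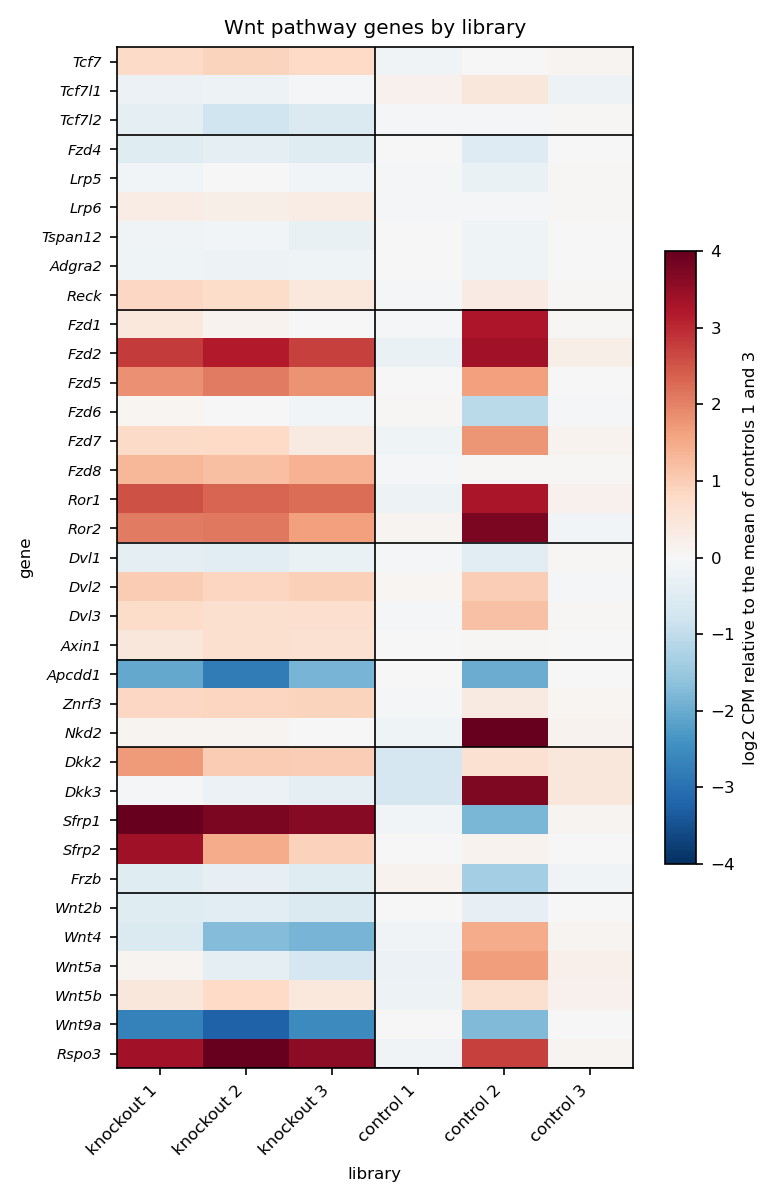
Log2 CPM of 35 Wnt pathway genes averaging 1 CPM or more, relative to the mean of controls 1 and 3 with 0.5 CPM added to each, and colours limited at 4 on either side. Genes run down the page by role and libraries across it, knockout left of control. Sfrp1 and Rspo3 are red in all 3 knockout libraries and Wnt9a and Apcdd1 blue. The column of control 2 differs from those of controls 1 and 3 in most of the 8 other receptors. In the 6 genes of the barrier-type receptor complex it differs by less than 2-fold.

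Genes of the pathway outside the 44 were given as 3 lists. Of 60 other Wnt pathway genes, 35 were tested, 1 rose, 2 fell and 5 were at 0 in every library, beside 13.1% of all genes that rose and 11.7% that fell. Wls, which carries Wnt proteins to the cell surface, rose to 663, 641 and 577 CPM in knockout cells, against 193, 332 and 216 CPM in control cells (1.34 ± 0.22, adjusted p = 0.0106), and its call was lost without knockout 2 (adjusted p = 0.0505). Tnks2, a tankyrase that marks Axin for degradation, fell to 229, 216 and 226 CPM in knockout cells, against 303, 270.6 and 319 CPM in control cells (-0.41 ± 0.08, adjusted p = 0.0182). Ctnnbip1, which blocks the binding of beta-catenin to TCF factors, was at 20.8, 21.2 and 20.6 CPM in knockout cells, against 56.8, 25.0 and 53.2 CPM in control cells (-1.11 ± 0.31, adjusted p = 0.0495), with 25.8% of its exonic bases under a gene on the opposite strand. The Tnks2 and Ctnnbip1 calls were kept without control 2 and lost without any other library, up to adjusted p of 0.0872 and 0.149. Beta-catenin itself, Ctnnb1, was at 949, 853 and 907 CPM in knockout cells, against 1115, 938 and 1111 CPM in control cells (-0.22 ± 0.11, adjusted p = 0.176, and -0.34 with 0.00431 without control 2). Without control 2, 11 of 36 tested genes of that list rose and 4 fell, beside 25.5% and 24.8% of all genes.

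Of 22 barrier genes that are linked to Wnt signalling in endothelium, 17 were tested, 5 rose and 4 fell in knockout cells, beside 13.1% and 11.7% of all genes. Cldn5, the main tight junction claudin of brain endothelium, was at 3.95, 6.63 and 25.3 CPM in knockout cells, against 339, 121 and 339 CPM in control cells (-4.48 ± 0.87, adjusted p = 0.0174). Its call was lost without control 1, control 3, knockout 1 or knockout 2, up to an adjusted p of 0.0810. The forkhead genes moved the other way. Foxq1 rose to 17.2, 20.6 and 15.97 CPM in knockout cells, against 0.895, 1.74 and 0.657 CPM in control cells (4.02 ± 0.38, adjusted p = 0.00259), with 66.1% of its exonic bases under a gene on the opposite strand. Foxf2 rose to 104, 102 and 103 CPM in knockout cells, against 30.3, 34.9 and 28.0 CPM in control cells (1.73 ± 0.09, adjusted p = 0.000711). Itm2a, a membrane protein enriched in brain endothelium, rose to 119, 205 and 115 CPM in knockout cells, against 32.4, 20.8 and 29.0 CPM in control cells (2.42 ± 0.30, adjusted p = 0.00495). Without control 2, 7 of 18 tested genes of that list rose and 8 fell, beside 25.5% and 24.8% of all genes, so its members went both ways in either fit.

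Of 15 general beta-catenin targets, 14 were tested, 1 rose and 3 fell, beside 13.1% and 11.7% of all genes. Bambi, a decoy receptor of the TGF-beta family and a target of beta-catenin, fell to 5.13, 7.02 and 6.68 CPM in knockout cells, against 31.2, 18.6 and 33.2 CPM in control cells (-2.14 ± 0.26, adjusted p = 0.00498). Gja1, a gap junction protein also used as an astrocyte marker, fell to 65.2, 46.0 and 60.1 CPM in knockout cells, against 103, 294 and 151 CPM in control cells (-1.68 ± 0.40, adjusted p = 0.0331). Ccnd2, cyclin D2, fell to 792, 571 and 641 CPM in knockout cells, against 997, 1304 and 1138 CPM in control cells (-0.78 ± 0.17, adjusted p = 0.0229). Birc5, the mitotic regulator survivin, rose to 26.8, 30.9 and 31.2 CPM in knockout cells, against 9.998, 11.5 and 8.10 CPM in control cells (1.59 ± 0.15, adjusted p = 0.00266). The groups did not overlap in any of the 4. The Gja1 call was lost without control 3 or any 1 knockout library (adjusted p up to 0.126), and that of Ccnd2 without control 3, knockout 2 or knockout 3 (up to 0.0923). Without control 2, 2 of the 14 rose and 7 fell, beside 25.5% and 24.8% of all genes.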

How the data were processed

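The authors deposited raw counts, whole numbers per Ensembl gene identifier, for 6 libraries. Per the labels' protocols, either the TruSeq RNA v2 kit or the TruSeq Stranded mRNA kit was used, with none named per library. Per the submitters' processing notes, FastQC 0.11.5, STAR 2.7.6a and GRCm38 were used. How reads were counted, with which strand setting and annotation release, is not given in the sources used here, so genes whose exons overlap on opposite strands may share reads. All rows carried a gene identifier and all columns matched these libraries.

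Symbols, positions and exon overlaps came from GENCODE M21 on GRCm38, which matched 52489 identifiers and left 147 unmatched. Groups came from the labels (3 libraries each), and every pair differed by more than sampling noise (lowest chi-square per degree of freedom 6.28). In R 4.3.3, edgeR 4.0.16 filtered genes with filterByExpr (minimum count 10), scaled libraries with TMM and ran two-sided quasi-likelihood F tests without covariates, with Benjamini-Hochberg adjustment over all 13901 genes. Errors of fold changes are standard errors, those of CPM are SDs. CPM per kb divides by exonic length, and shares within a family use CPM per kb. Floors of 3 counts and count intervals cover counting error only. Permuting 3 against 3 libraries cannot give a p below 0.1, so no single-gene permutation test was run. The test was checked on simulated data. The alternatives were other scalings, filters, tools (DESeq2 1.42.0, limma 3.58.1) and thresholds, a replicate block, a sex term and leaving out each library.

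The members, lists and tests were chosen with earlier results of these data known. Values per library are given for called members and those over 20 CPM on average. From each of the 3 other lists, the 4 called genes with the largest fold change among those of at least 5 CPM are named. From marker lists, the 2 most abundant genes are named, except for the neuron and oligodendrocyte list, where they are not reported here. Ctnnb1 was named outside this rule after its values were seen.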

Additional observations from a re-analysis of the deposited data

How the results depend on the processing

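Against 8 Wnt genes higher in knockout cells, the count was 5 with a replicate block, 2 in a test against a 1.5-fold change, 3 at an adjusted p under 0.01, 17 in male libraries alone and 3 to 17 with 1 library left out. Against 2 lower, it was 4 with DESeq2, 1 with limma voom, 0 against a 1.5-fold change, 0 at an adjusted p under 0.01, 6 in male and 11 in female libraries, and 0 to 7 with 1 library left out. Without knockout 2 the counts were 3 and 0, and without control 2 they were 17 and 7. The cause was not tested. The fits by sex were chosen after seeing the data and have an arm of 1 library (knockout 1 among males, control 2 among females), which is assumed to vary like the other arm, so they compare single libraries and do not test stability. With the block, Lrp6 (adjusted p = 0.0618), Reck (0.0835), Znrf3 (0.0547) and Tcf7l2 (0.0656) lost their calls and Apcdd1 was called lower (0.0452). Same-numbered libraries deviated together with correlations of -0.188, 0.186 and 0.319, so the numbers were not taken to pair them. Fold changes turned sign beside a call for Fzd7 (-0.51 to 0.63 with 1 library left out, 0.76 in male libraries), Ror2 (-0.96 to 2.25, and 2.39), and in female libraries for Ror1 (-1.02), Dvl3 (-0.49) and Frzb (0.96). DESeq2 called Apcdd1 (adjusted p = 0.00428), Wnt4 (0.0137), Dkk2 (0.0334) and Rspo3 (0.0293), and limma voom called Rspo3 (0.0445), which edgeR did not. No DESeq2 result was available for Fzd1, Fzd2, Ror1, Ror2 and Nkd2, so the DESeq2 counts leave them out. Reck lost its call with RLE scaling (0.05002), no filter (0.0528) and a sex term (0.0869), and Sfrp2 (0.0823) and Wnt9a (0.0766) lost theirs with limma voom. With library size alone, 66.4% of all called genes were higher, against 52.8% with TMM, and the Wnt counts stayed at 8 and 2. Genes under 1 CPM on average (Lef1, Axin2, Rnf43, Nkd1, Dkk1, Wif1, Wnt6, Wnt9b and Rspo1) carry few counts, which limits the precision of their values.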
